A study of Mus musculus with 59 samples.

Results

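PRC1.6 is the variant Polycomb repressive complex 1 that is built around PCGF6. It carries the RING1A/B catalytic subunits together with DNA-binding partners, and in ESCs it is known for keeping germline genes silent. The MGA/MAX heterodimer binds E-box sequences and E2F6 with its dimer partner DP1 binds E2F sites. L3MBTL2, WDR5 and CBX3 (HP1γ) are chromatin proteins of the same complex. The genes described here are the 7 partners *L3mbtl2*, *Mga*, *Max*, *E2f6*, *Tfdp1* (which encodes DP1), *Wdr5* and *Cbx3*, chosen by name as PRC1.6 partners of PCGF6. All 7 were found among the 24391 genes listed in the deposited files.

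RNA-seq was performed on 59 libraries of 6 mouse embryonic stem cell (ESC) lines, each in 4 groups, ESCs and embryoid bodies (EBs) without (control) and with (mutant) 4-hydroxytamoxifen (4-OHT). Every line carries ERT2-Cre, which 4-OHT activates. No line without a conditional allele was included, so a mutation cannot be told apart from 4-OHT and active Cre. ESCs were kept with LIF and 3 inhibitors on feeder fibroblasts (MEFs), and EBs are the aggregates formed after removal of LIF and the inhibitors. The *Pcgf1* line (*Pcgf1* f/f without and delta/delta with 4-OHT) holds 19 libraries, 4 of control ESCs and 5 each of *Pcgf1*-KO ESCs, control EBs and *Pcgf1*-KO EBs. The other lines hold 8 libraries each, 2 per group. In the point mutant line all cells carry *Ring1a* pm/pm, the controls have a *Ring1b* allele that is not yet mutated, and 4-OHT gives *Ring1b* pm/pm, so that both RING1 proteins are catalytically inactive. In the *Ring1A/B* line all cells, controls included, are *Ring1a*-/-, with *Ring1b* f/f or delta/delta. The *Pcgf2/4*, *Pcgf3/5* and *Pcgf6* lines have the named genes f/f without and delta/delta with 4-OHT. By the study's methods *Pcgf1* to *Pcgf5* were deleted ahead of EB formation and *Pcgf6* and *Ring1b* as it began. The labels do not say whether replicates are separate cultures. If they are not, p-values measure only the spread between these libraries, which may be technical.

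The deposited values are TPM, which are scaled for gene length, so that levels may be compared between genes. Each library sums to 1000000 TPM and its depth is unknown, with 6039 to 9139 genes at 0 in each. In the *Pcgf1* and point mutant lines labels and deposited names match for every library, and the deleted gene *Pcgf1* lay between 7.3 and 16.6 TPM in all control libraries and between 0.627 and 2.77 TPM in all KO libraries. In 21 of the 32 libraries of the other 4 lines the condition in the deposited name differs from the sample label. Groups follow the labels there, as "labelled" libraries, and the marker levels go against some of them. The summed level of 8 naive pluripotency markers was 350 to 353 TPM in the *Ring1A/B* libraries labelled mutant ESC and 2688 to 2697 TPM in those labelled control EB. For the *Pcgf1* line this sum lay between 2692 and 4163 TPM before and between 268 and 530 TPM after EB formation in controls, and all 6 markers of the EB stage rose from control ESCs to control EBs. Feeder fibroblast markers (8 genes) summed to 151 to 286 TPM over all ESC libraries of this line and to 15.8 to 41.9 TPM over all EB libraries, with *Lum* at 0 in all *Pcgf1*-KO EBs. In bulk samples such as these, fewer cells of a type and less RNA per cell cannot be told apart.

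In mm9, the build the authors used, GENCODE places *L3mbtl2* on chr15:81494319-81518745, *Tfdp1* on chr8:13338751-13378395 and *Cbx3* on chr6:51420359-51433703, all on the plus strand. *Mga* (chr2:119722964-119795317) and *Wdr5* (chr2:27370677-27392055) share chromosome 2, and *E2f6* (chr12:16817771-16833549) and *Max* (chr12:78038256-78063235) share chromosome 12, where *Max* alone is on the minus strand. All 7 are annotated as protein coding.

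Since MGA/MAX and E2F6/DP1 bind DNA directly, the promoters of the members and of the 16 germline genes were searched for the E-box CACGTG, which reads the same on both strands, and for the E2F core GCGGGA on either strand. RefSeq promoters of GRCm38.p6, from 250 bases before to 50 bases after the start, were used, another build than that of the gene positions. The E-box stood in at least 1 promoter of 9 of the 16 germline genes and of 2 of the 7 members, against 8.09% of all genes with a promoter in the table. The E2F core stood in promoters of 8 of the 16 germline genes and of 3 of the 7 members, against 22% of all genes. These are matches of letters, given as a description, and binding was not measured in these files. The promoters of *Max* and *E2f6* are printed because the former holds the E-box and the latter the E2F core, and that of *Mael* because this germline gene, which rose in the point mutant, holds both. They are at chr12:76962199-76962498 (minus strand), chr12:16810715-16811014 (plus strand) and chr1:166238695-166238994 (minus strand) of GRCm38.p6, 5′ to 3′, and capitals mark the motifs.
Max: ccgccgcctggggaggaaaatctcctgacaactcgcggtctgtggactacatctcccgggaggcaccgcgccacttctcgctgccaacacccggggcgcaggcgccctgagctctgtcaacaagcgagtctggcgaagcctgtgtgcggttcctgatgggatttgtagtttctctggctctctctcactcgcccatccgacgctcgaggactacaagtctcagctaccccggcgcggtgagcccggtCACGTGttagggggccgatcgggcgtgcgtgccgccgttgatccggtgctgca
E2f6: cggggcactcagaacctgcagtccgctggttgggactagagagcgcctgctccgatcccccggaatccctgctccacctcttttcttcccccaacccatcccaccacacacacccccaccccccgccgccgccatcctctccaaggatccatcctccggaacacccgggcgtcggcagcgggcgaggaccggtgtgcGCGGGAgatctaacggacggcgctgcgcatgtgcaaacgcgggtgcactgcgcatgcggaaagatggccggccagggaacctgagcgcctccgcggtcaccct
Mael: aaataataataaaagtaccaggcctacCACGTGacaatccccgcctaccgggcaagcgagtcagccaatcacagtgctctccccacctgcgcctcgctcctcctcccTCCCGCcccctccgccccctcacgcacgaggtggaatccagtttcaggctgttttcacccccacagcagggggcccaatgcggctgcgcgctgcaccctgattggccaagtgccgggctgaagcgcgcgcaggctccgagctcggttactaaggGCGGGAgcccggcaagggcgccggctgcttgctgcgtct

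All members were expressed in every library. Over the 19 libraries of the *Pcgf1* line, *Cbx3* stood highest at 397 ± 87.6 TPM (SD, n = 19), above 98.6% of genes. *Wdr5* followed at 211 ± 45.3 TPM and *Tfdp1* at 168 ± 32.1 TPM. *L3mbtl2* stood at 119 ± 41.0 TPM, *Max* at 89.4 ± 14.4 TPM and *Mga* at 67.7 ± 22.4 TPM. *E2f6* was the lowest at 23.1 ± 5.30 TPM, above 73.8% of genes. The range of *Cbx3* (284 to 538 TPM) overlapped with that of no other member. From *Wdr5* down to *E2f6* (16 to 37.0 TPM) each gene overlapped with its neighbour in this order, and *Wdr5* and *Tfdp1*, *L3mbtl2* and *Max*, and *Max* and *Mga* lay within 1 SD of each other. In the point mutant line the order was the same but for *Max* (94.7 ± 8.42 TPM, n = 8), which stood above *L3mbtl2* (69.2 ± 13.7 TPM), and *E2f6* (37.8 ± 12.3 TPM), which stood above *Mga* (29.8 ± 7.49 TPM).

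**Figure D1:**
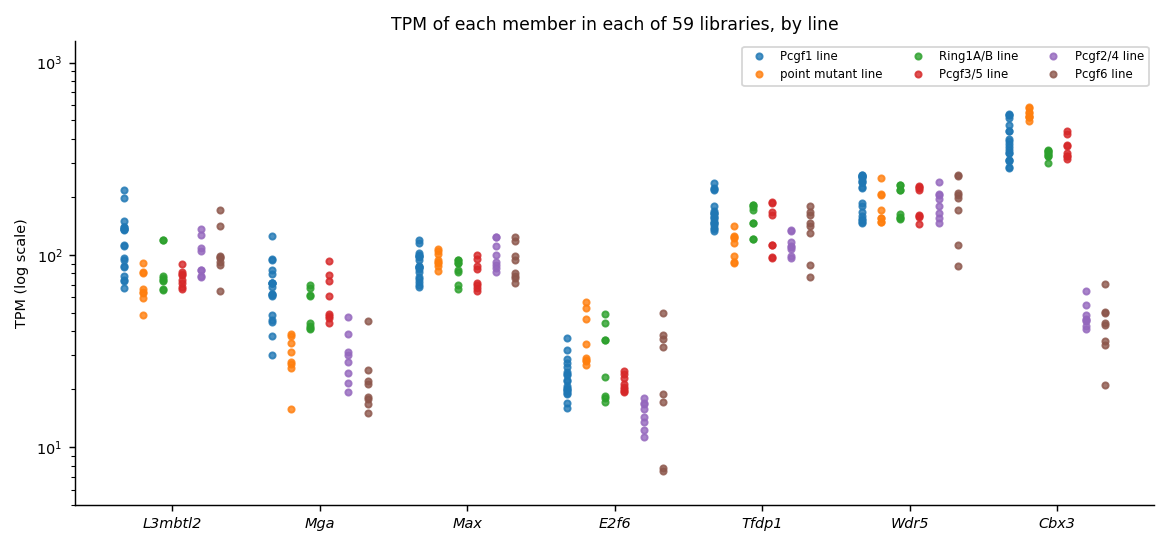
TPM (log axis) of each member in all 59 libraries, with a column of points per line. *Cbx3* sits between 284 and 590 TPM in 43 libraries of 4 lines and between 21 and 70.1 TPM in the 16 libraries of the *Pcgf2/4* and *Pcgf6* lines.

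*Cbx3*, the HP1γ gene, was the only member whose range in the *Pcgf2/4* and *Pcgf6* lines did not overlap with that in the other 4 lines. In the 16 libraries of the *Pcgf2/4* and *Pcgf6* lines it was at 21 to 70.1 TPM, with a median of 45.4, and in the 43 libraries of the other 4 lines at 284 to 590 TPM, with a median of 367. *Mga* was also lower there (median 23.2 against 60.8 TPM), though the ranges of 15.1 to 47.6 and 15.8 to 126 TPM overlapped. *Rybp*, a RING1-binding subunit that is no member, showed the same split as *Cbx3*, at 1.92 to 22.7 against 91.8 to 194 TPM. The headers place the 16 libraries in 1 library series of their own, so that line and series cannot be told apart and no test was made. *Max* (medians 93.1 and 87.3 TPM) and *Wdr5* (medians 196 and 204 TPM) had close levels in both sets of lines. Between single lines the ranges of other members could also separate. *E2f6* was at 11.2 to 17.9 TPM in the *Pcgf2/4* line and at 19.4 to 24.8 TPM in the *Pcgf3/5* line.

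To ask how the partners change as ESCs become EBs, control EBs of the *Pcgf1* line were compared with control ESCs. *Wdr5*, a scaffold of histone methyltransferase complexes, fell. It was at 255, 244, 226 and 257 TPM in control ESCs (replicates 1 to 4) and at 148, 154, 152, 187 and 180 TPM in control EBs (replicates 1 to 5). The groups did not overlap, and replicates 4 and 5 were the highest of the EBs. The log2 fold change on the log2(TPM + 0.1) scale, which is used throughout, was -0.58 (SE 0.14, adjusted p = 0.00409). *Wdr5* was the only member called of 7, by limma with Benjamini-Hochberg adjustment over all genes, where 24.9% of all genes tested were called. The feeder marker sum fell in the same comparison, from 194 to 286 down to 26.2 to 41.9 TPM, with 5 of 8 markers lower and 1 higher, and its part in the fall of *Wdr5* was not tested.

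Same-numbered libraries of this line deviated together. The headers place replicate 1, replicates 2 and 3, and replicates 4 and 5 in separate library series. Whether same-numbered libraries share more than a series was not tested. A fit with the replicate number as a block called 4 of 7 members, where 43.9% of all genes were called. *Wdr5* fell by 0.62 (SE 0.09, adjusted p = 5.85e-05). *L3mbtl2*, whose protein reads methylated histones through MBT domains, was higher by 0.29 (SE 0.06, adjusted p = 0.00164). *E2f6*, a repressor of the E2F family, was higher by 0.42 (SE 0.12, adjusted p = 0.0116), and *Cbx3* by 0.36 (SE 0.09, adjusted p = 0.00314). *L3mbtl2* was at 67.5, 112, 111 and 77.5 TPM in control ESCs and at 72.9, 150, 136, 96.5 and 93.5 TPM in control EBs. *E2f6* was at 16.8, 24.0, 26.2 and 20.8 TPM in the ESCs and at 28.8, 32.1, 37.0, 22.4 and 23.7 TPM in the EBs, and *Cbx3* at 393, 438, 363 and 306 TPM and at 532, 513, 538, 377 and 340.5 TPM. The groups overlap for all of these genes, but each was higher in 4 of 4 pairs, and for *E2f6* and *Cbx3* replicates 4 and 5 were the lowest of the EBs. *Max* ranged from 71.9 to 102 TPM in the ESCs and from 75 to 115 TPM in the EBs, and *Tfdp1* from 138 to 158 and from 133 to 219 TPM. For *Mga* (-0.32), *Max* (0.09) and *Tfdp1* (0.25), the adjusted p was 0.137 to 0.316 with the block.

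**Figure D2:**
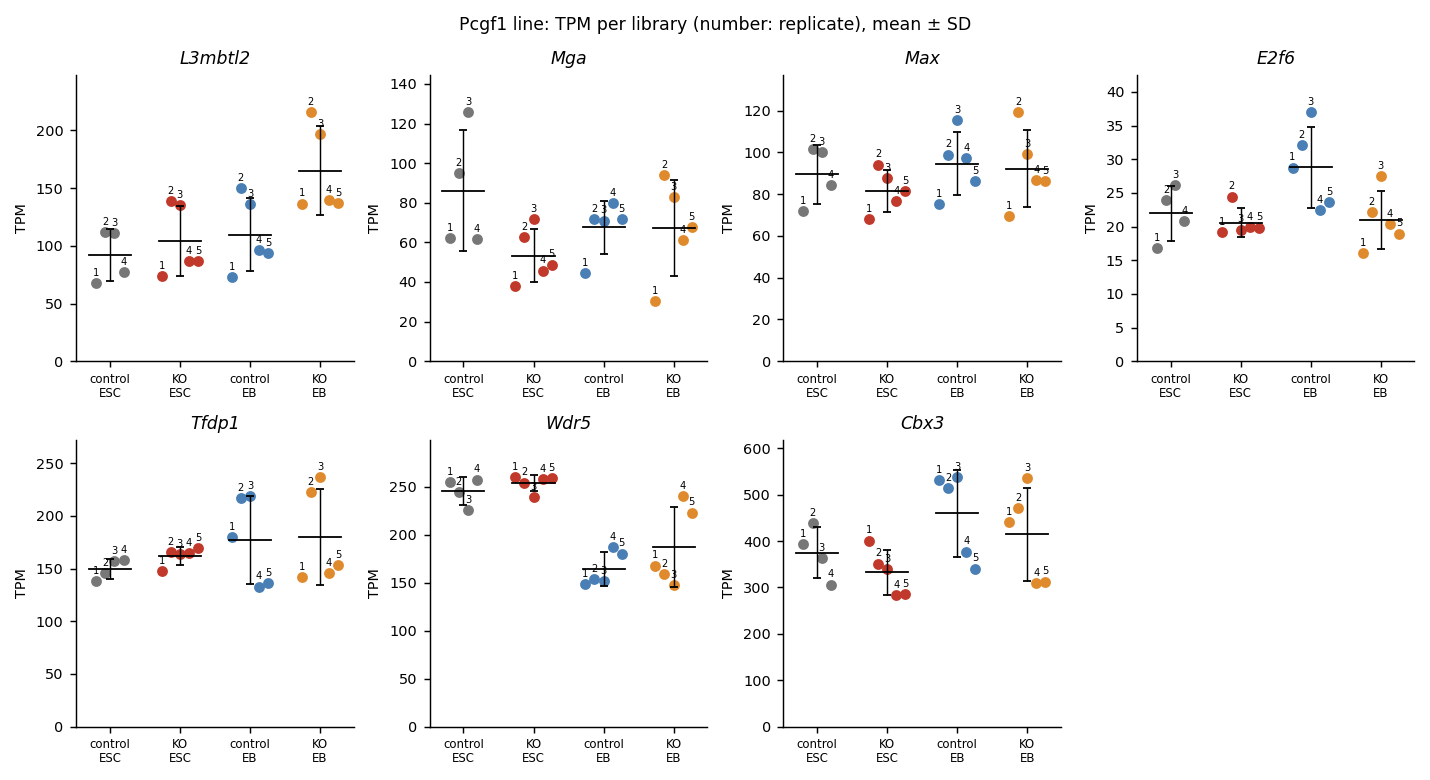
TPM of the 7 members in the 19 libraries of the *Pcgf1* line, by group, with each point numbered by its replicate and the mean ± SD in black. *Wdr5* is at 226 to 260 TPM in all 9 ESC libraries and at 147 to 240 TPM in the 10 EB libraries.

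Without PCGF1, *Wdr5* fell again and *L3mbtl2* rose. *Wdr5* was at 260, 254, 240, 258 and 259 TPM in *Pcgf1*-KO ESCs and at 168, 159, 147, 240 and 223 TPM in *Pcgf1*-KO EBs, where EB replicate 4 was just above the lowest ESC library, replicate 3. Its log2 fold change was -0.47 (SE 0.13, adjusted p = 0.0164). *L3mbtl2* was at 73.9, 139, 135, 87.0 and 86.8 TPM in *Pcgf1*-KO ESCs and at 137, 216, 197, 140 and 137 TPM in *Pcgf1*-KO EBs. The groups overlap, but every pair was higher in EBs, by 0.55 to 0.88. The log2 fold change was 0.68 (SE 0.23, adjusted p = 0.0489). Thus 2 of 7 members were called, where 18.3% of all genes were called. The call of *L3mbtl2* was lost in 12 of the 19 fits with 1 library left out, without *Pcgf1*-KO ESC replicate 1, 4 or 5, *Pcgf1*-KO EB replicate 1, 2, 3 or 4, control ESC replicate 2, 3 or 4, or control EB replicate 4 or 5 (adjusted p = 0.0508 to 0.126), and with a pseudocount of 1 (adjusted p = 0.051). Fitting only the groups compared ended both calls (adjusted p = 0.0547 and 0.0622), and median-of-ratios scaling that of *Wdr5* (-0.42, adjusted p = 0.118). With the block, 3 of 7 were called, where 36.8% of all genes were called, and *Cbx3* (0.29, SE 0.08, adjusted p = 0.00927) joined *Wdr5* and *L3mbtl2* (adjusted p = 5.43e-07). Between these groups the primitive endoderm sum went from 3.92 to 10.2 TPM in the ESCs to 8.38 to 22.7 TPM in the EBs, with 2 of 6 markers higher and 0 lower, and the feeder sum from 151 to 228 TPM down to 15.8 to 20.8 TPM, with 1 of 8 higher and 5 lower. Their part in the changes of *Wdr5* and *L3mbtl2* was not tested.

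Loss of PCGF1 in ESCs was examined next. *Mga*, the MAX partner that targets PRC1.6 to DNA, was the member with the lowest fold change. It was at 62.1, 94.9, 126 and 61.8 TPM in control ESCs and at 37.9, 62.6, 71.7, 45.8 and 48.8 TPM in *Pcgf1*-KO ESCs. The groups overlap, but *Pcgf1*-KO was below control in each of the 4 same-numbered pairs, by 0.43 to 0.81 on the log2 scale, and *Pcgf1*-KO ESC replicate 5 has no such control. By the order of the run identifiers in the headers, the numbers 4 and 5 of the *Pcgf1*-KO ESCs look exchanged. By limma without the block, 0 of 7 members were called, 1 had an unadjusted p under 0.05, and 0.641% of all genes were called. *Mga* was at -0.66 (SE 0.30, adjusted p = 0.527). With the block *Mga* fell by 0.67 (SE 0.17, adjusted p = 0.0297) and was the 1 member of 7 called, where 5.31% of all genes were called. With these numbers exchanged in the block its log2 fold change was -0.66 (adjusted p = 0.0334), and it was again the 1 member called. *L3mbtl2* was higher in 4 of 4 pairs, by 0.13 to 0.31, with a blocked adjusted p of 0.06. The other members had blocked log2 fold changes of -0.11 (*Max*) to 0.15 (*Tfdp1*).

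In *Pcgf1*-KO EBs against control EBs, *L3mbtl2* and *E2f6* differed in opposite directions. *L3mbtl2* was at 72.9, 150, 136, 96.5 and 93.5 TPM in control EBs and at 137, 216, 197, 140 and 137 TPM in *Pcgf1*-KO EBs. All 5 pairs were higher, replicate 1 by 0.90 and the others by 0.53 to 0.55. *E2f6* was at 28.8, 32.1, 37.0, 22.4 and 23.7 TPM in control EBs and at 16, 22.1, 27.5, 20.4 and 19 TPM in *Pcgf1*-KO EBs, lower in all 5 pairs by 0.14 to 0.84. Without the block *L3mbtl2* was at 0.61 (SE 0.23, adjusted p = 0.243, or 0.0332 with median-of-ratios scaling) and *E2f6* at -0.45 (SE 0.17, adjusted p = 0.236). By limma, 0 of 7 members were called, 2 had an unadjusted p under 0.05, and 1.95% of all genes were called. With the block both were called, *L3mbtl2* at 0.61 (SE 0.06, adjusted p = 2.93e-05) and *E2f6* at -0.45 (SE 0.11, adjusted p = 0.0195), 2 of 7 members where 10.4% of all genes were called. Replicates 1, 2 and 3, and 4 and 5 belong to 3 library series in the headers, and both genes kept their direction within each series. Summed EB markers ran from 1166 to 3220 TPM without and from 434 to 2081 TPM with the deletion, with 0 of 6 called, and naive markers from 268 to 530 and from 383 to 1098 TPM, with 2 of 8 higher. Primitive endoderm markers summed to 6.83 to 18.7 and to 8.38 to 22.7 TPM, with 2 of 6 higher and 0 lower, and feeder markers to 26.2 to 41.9 and to 15.8 to 20.8 TPM, with 1 of 8 higher and 1 lower. The part of these markers in the differences was not tested.

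The *Pcgf1*-KO effect in EBs was set against that in ESCs in the same fit. Without the block 0 of 7 members were called by limma, 0 had an unadjusted p under 0.05, and 0.00486% of all genes were called. With the block 1 of 7 was called, where 1.62% of all genes were called. This was *L3mbtl2*, whose effect was larger in EBs by 0.39 (SE 0.09, adjusted p = 0.0403). *Mga* had a difference of 0.59 (SE 0.23, adjusted p = 0.213) and *E2f6* of -0.41 (SE 0.17, adjusted p = 0.246).

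**Figure D3:**
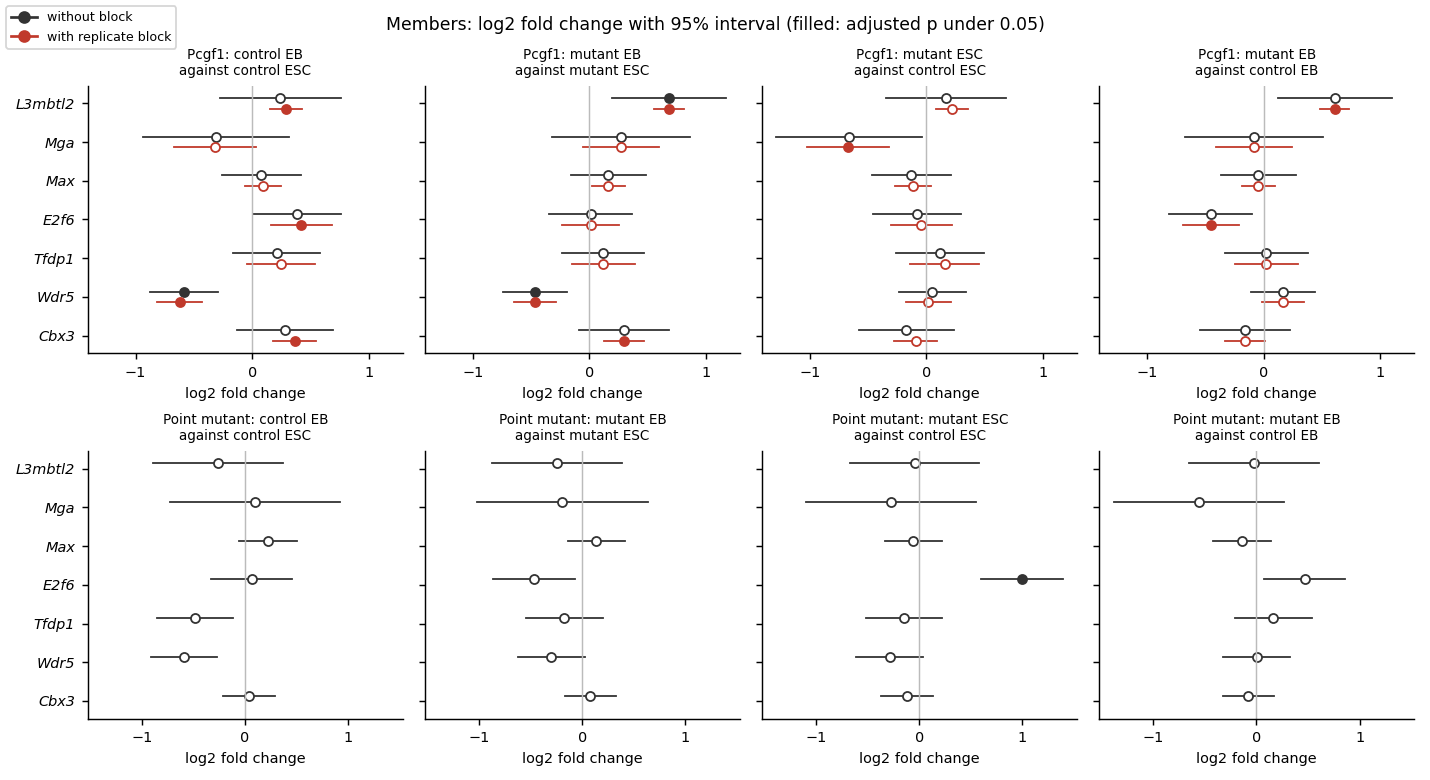
Log2 fold change of each member (points) with its 95% interval (lines) in 4 comparisons, for the *Pcgf1* line (upper row, without and with the replicate block) and the point mutant line (lower row); filled points passed an adjusted p of 0.05. *E2f6* at 1.00 is the only filled point of the lower row.

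In the point mutant line the question was whether the partners depend on RING1A/B activity. *E2f6* rose in mutant ESCs. It was at 26.7 and 28.2 TPM in control ESCs and at 53.1 and 56.6 TPM in mutant ESCs, with no overlap. The log2 fold change was 1.00 (SE 0.17, adjusted p = 0.0315), and *E2f6* was the 1 member of 7 called, where 2.54% of all genes were called. The call was lost in all 8 fits with 1 library left out, in which the fold change was 0.95 to 1.04 and the adjusted p 0.0506 to 0.217, and where a group is left with 1 library, that library is assumed to vary like the others. The other 6 members had log2 fold changes of -0.29 (*Wdr5*) to -0.05 (*L3mbtl2*). Median-of-ratios scaling shifted the median of all genes by -0.14 in this comparison and by -0.13 in mutant against control EBs. The feeder marker sum was at most 44.5 TPM in control and 74.8 to 79.4 in mutant ESCs, with *Lum* at 0 in both groups and 1 of 8 called, and the sum of primitive endoderm markers was 4.96 to 6.18 and 23.7 to 25.2 TPM, with 2 of 6 called. Their part in the rise of *E2f6* was not tested.

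In EBs of this line *E2f6* was at 28.3 and 29.1 TPM in controls and at 34.1 and 46.1 TPM in mutants. This gave 0.47 (SE 0.17, adjusted p = 0.173). By limma 0 of 7 members were called, 1 had an unadjusted p under 0.05, and 4.53% of all genes were called. *Mga* was at 31.3 and 37.9 TPM in control and 15.8 and 34.6 TPM in mutant EBs, where replicate 1 of the mutant was the lowest of the line (-0.56, adjusted p = 0.43). The difference of the mutant effect between EBs and ESCs was called for 0 of 7 members, with 0 at an unadjusted p under 0.05 and 0.00986% of all genes called. For *E2f6* it was -0.53 (SE 0.24, adjusted p = 0.973). Markers moved in mutant EBs as well. EB markers summed to 516 to 752 TPM in control and 166 to 201 TPM in mutant EBs (3 of 6 lower), naive markers to 826 to 1060 and 1616 to 1705 TPM (3 of 8 higher), and feeder markers to 32.8 to 37.6 and 86.7 to 87.9 TPM (4 of 8 higher). Their part in the values of *E2f6* and *Mga* was not tested.

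**Figure D4:**
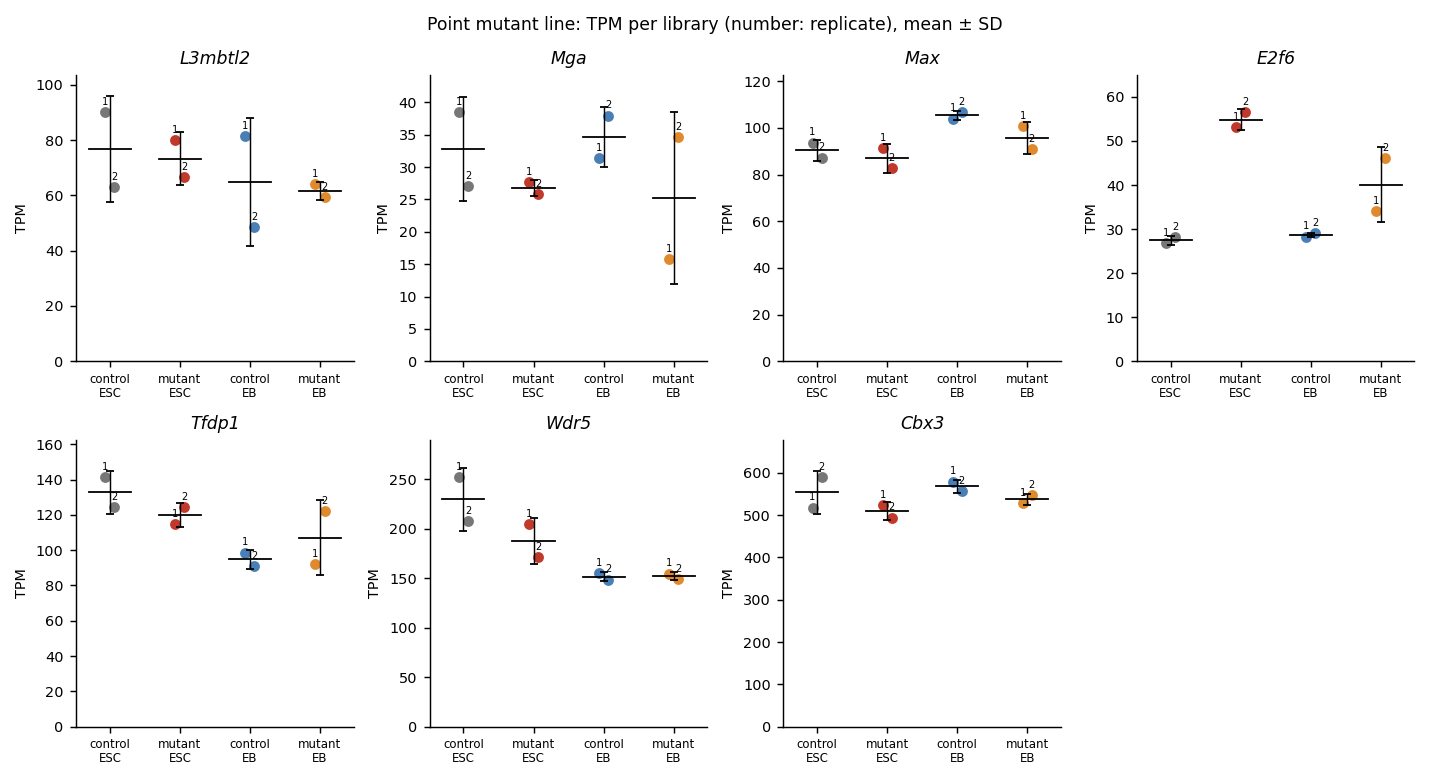
TPM of the 7 members in the 8 libraries of the point mutant line, by group, with the replicate number at each point and the mean ± SD in black. *E2f6* is at 53.1 and 56.6 TPM in mutant ESCs and at most 46.1 TPM in the other groups.

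From ESCs to EBs of the same line *Wdr5* was again lower, at 252 and 207 TPM in control ESCs and 155 and 148 TPM in control EBs, with no overlap. The fold change of -0.59 (SE 0.14, adjusted p = 0.0582) did not pass the threshold, and 0 of 7 members were called by limma, with 2 at an unadjusted p under 0.05 and 4.73% of all genes called. When genes whose mean lay under 1 TPM were left out, *Wdr5* passed (adjusted p = 0.04) as 1 of 7 members, where 8.20% of the genes tested were called. *Tfdp1*, the DP1 gene, was the other with such a p, at 141 and 124 TPM in control ESCs and 98.6 and 91.1 TPM in control EBs (-0.48, adjusted p = 0.145). From mutant ESCs to mutant EBs 0 of 7 were called, 1 had an unadjusted p under 0.05, and 0.133% of all genes were called. That was *E2f6*, at 53.1 and 56.6 TPM in mutant ESCs and 34.1 and 46.1 TPM in mutant EBs (-0.47, SE 0.17, adjusted p = 0.455). *Wdr5* was at 204 and 171 TPM in mutant ESCs and at 155 and 149 TPM in mutant EBs (-0.30, adjusted p = 0.529). *Cbx3* lay between 494 and 590 TPM in all 8 libraries. *L3mbtl2*, *E2f6* and *Cbx3*, higher with the block in control EBs of the *Pcgf1* line, were not called here. From control ESCs to control EBs *L3mbtl2* went the other way (-0.26), and *E2f6* and *Cbx3* were at 0.06 and 0.04. From mutant ESCs to mutant EBs *L3mbtl2* was at -0.24.

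In the *Ring1A/B* line, where labels and deposited names differ in 4 of 8 libraries, 18 of 28 member results over the 4 comparisons by label were called, where 45.5% of all gene results were called. Among genes with a mean of at least 1 TPM, 47.8% to 73.4% were called in these comparisons. *E2f6* was at 17.9 and 17 TPM where the label reads control ESC and 23.0 and 18.4 TPM where it reads mutant ESC, against 36.0 and 36.0 TPM under control EB and 49.1 and 44.0 TPM under mutant EB. The deposited names of the 4 libraries labelled mutant ESC and control EB read control EB and mutant ESC in turn. *Wdr5* was lowest, at 153 to 163 TPM, in the libraries labelled mutant ESC and mutant EB, and at 217 to 231 TPM in the others. *L3mbtl2* was at 119 TPM in both libraries labelled mutant EB and at 65.9 to 78.0 TPM in the other 6. Leaving out 1 library gave 15 to 18 calls. Replicates of this line were close, at 65.9 and 66.0 TPM for *L3mbtl2* in those labelled control ESC. EB markers summed to 1099 to 1148 TPM in the libraries labelled mutant ESC and to 133 to 139 TPM in those labelled control EB. Together with the naive marker sums, these levels go with the stage in the names and not with that in the labels. Read by name, *Wdr5* was lowest in the EB libraries and *E2f6* highest in the mutant libraries. No fit or test was made by name, and by label no direction can be given for stage or genotype. Without the 4 libraries whose names and labels differ, only those labelled control ESC and mutant EB remain, which differ in both.

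In the *Pcgf6* line, where 6 of 8 names differ from labels, 0 of 28 member results were called by limma, 2 had an unadjusted p under 0.05, and 0% of all gene results were called. *E2f6* was at 17.1 and 7.78 TPM under the label control ESC, 18.9 and 7.49 under mutant ESC, 36.7 and 33.2 under control EB and 38.0 and 49.9 under mutant EB. The 4 libraries labelled EB, all of which have a deposited name that reads mutant, were thus above the 4 labelled ESC. *Pcgf6*, the targeted gene, was at 34.7 to 46.3 TPM in the same 4 libraries labelled EB and at 67.1 to 105 TPM in those labelled ESC. By label *E2f6* had a log2 fold change of 1.59 (SE 0.55, adjusted p = 0.805) between control groups and of 1.86 (SE 0.55, adjusted p = 0.748) between mutant groups. Each labelled group held 1 library with a low and 1 with a high level of the stage markers, with naive marker sums of 578 and 2003 TPM and EB marker sums of 76.1 and 732 TPM in the group labelled control ESC, and of 905 and 2305 TPM and of 94.8 and 695 TPM in that labelled control EB. The 0 calls therefore do not show an absence of change. By label, stage and genotype cannot be told apart here. In the names, replicate 1 of every labelled group reads ESC and replicate 2 reads EB, while the 4 libraries labelled EB read mutant. Read by name, *E2f6* was higher and *Pcgf6* lower in the mutant libraries of both stages, with no overlap. No fit or test was made by name.

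**Figure D5:**
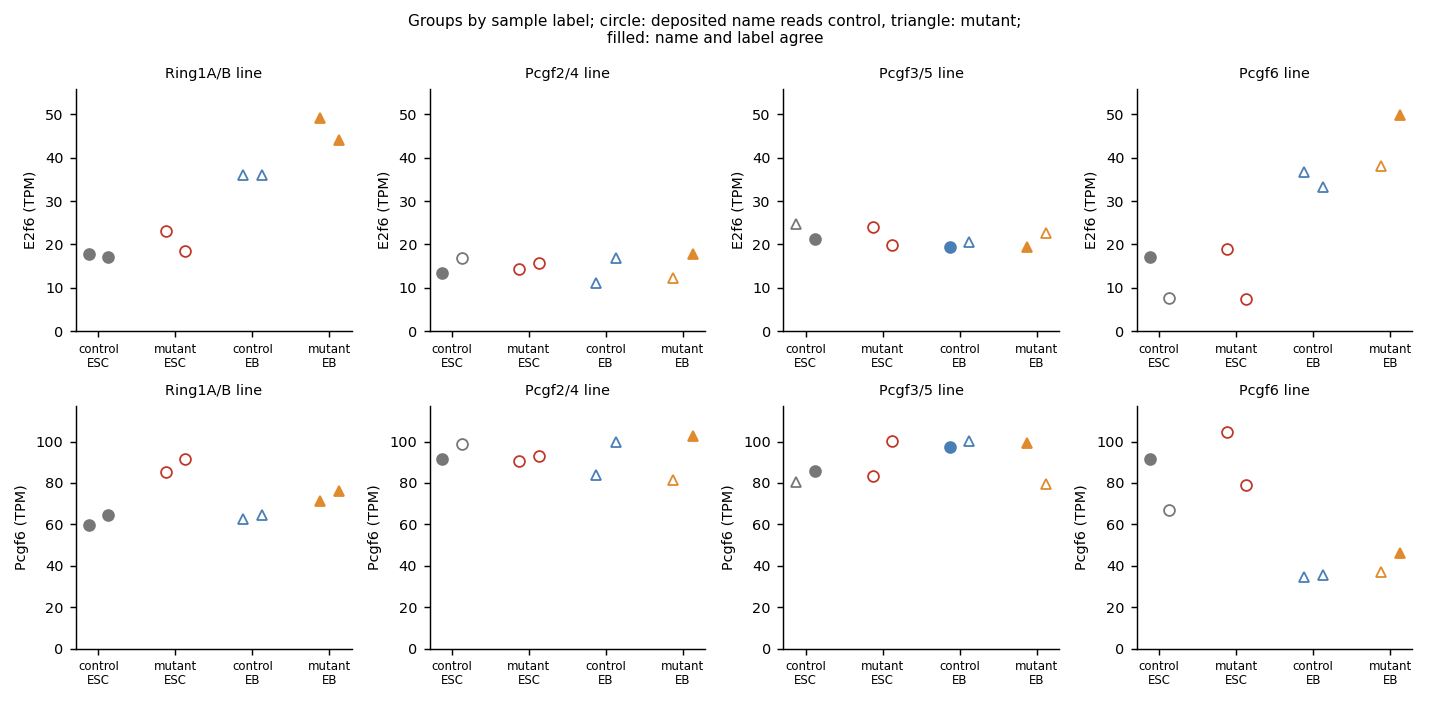
TPM of *E2f6* (upper row) and *Pcgf6* (lower row) in the 4 lines whose labels and deposited names differ, with groups by label. Circles have a deposited name that reads control and triangles one that reads mutant, and filled points are those whose name and label match. *E2f6* is at 33.2 to 49.9 TPM in the triangles of the *Pcgf6* line.

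In the *Pcgf3/5* line (5 of 8 names differ) 0 of 28 member results were called by limma, 1 had an unadjusted p under 0.05, and 0.0326% of all gene results were called. Fitting only the groups compared called 4 of 7 members between the groups labelled control ESC and control EB. There this fit called 24.9% of all genes. In the other comparisons by label the same fit called 0 members. In the groups labelled control ESC and control EB the deposited names gave the same stage as the labels. Each of these groups mixed names that read control and mutant. The naive marker sum was 978 to 2421 TPM within the group labelled mutant ESC and 639 to 2744 TPM within that labelled mutant EB. With such a spread inside these groups, the 0 calls do not show an absence of change. *E2f6* lay between 19.4 and 24.8 TPM in all 8 libraries. In the *Pcgf2/4* line (6 of 8 names differ) 0 of 28 were called, 0 had an unadjusted p under 0.05, and 0% of all gene results were called. In this line too each labelled group held a low and a high library, with naive marker sums of 561 to 689 TPM and 1615 to 1713 TPM, and EB marker sums of 79.5 to 94.9 TPM and 984 to 1158 TPM. With both levels inside every group, a count of 0 does not show that the members stayed the same between stages or genotypes. There *E2f6* lay between 11.2 and 17.9 TPM and *Cbx3* at 41.1 to 65.0 TPM, whereas *Cbx3* was at 316 to 439 TPM in the *Pcgf3/5* line.

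The other subunits of PRC1.6 and of the E2F6 complex, 9 genes, were set beside the partners. From control ESCs to control EBs of the *Pcgf1* line 2 rose and 1 fell, with a median log2 fold change of 0.01 against -0.0045 for all genes. *Pcgf6* rose by 0.66 (adjusted p = 0.00109) and *Yaf2*, the RYBP paralogue, by 0.86 (adjusted p = 0.025), whereas *Rnf2*, the RING1B gene, fell by 0.64 (adjusted p = 0.0053). With the block *Rybp* (-0.30) and *Ehmt1*, a histone H3K9 methyltransferase (0.86), also passed. Between *Pcgf1*-KO ESCs and EBs *Pcgf6* rose by 0.39 (adjusted p = 0.0377) and *Rnf2* fell by 0.47 (adjusted p = 0.031), and with the block 4 rose and 1 fell. In *Pcgf1*-KO against control cells 0 of 9 passed at either stage without the block, and 1 of 9 did with the block in EBs, *Ehmt2* at 0.34 (adjusted p = 0.0359). Of the same genes 0 of 9 passed in point mutant ESCs and 0 of 9 in point mutant EBs, with *Hdac2* closest at 0.35 in EBs (adjusted p = 0.0957). For this list and those below, the share of all genes called in the *Pcgf1* line was 24.9% (43.9% with the block) from control ESCs to EBs. It was 18.3% (36.8%) from *Pcgf1*-KO ESCs to EBs, and in *Pcgf1*-KO against control 0.641% (5.31%) in ESCs and 1.95% (10.4%) in EBs. In the point mutant line, without the block, it was 4.73% and 0.133% between the stages in control and mutant cells. In mutant against control it was 2.54% in ESCs and 4.53% in EBs.

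Of 9 paralogues of the members, *Cbx1* and *Cbx5* (the other HP1 genes), *Mbtd1*, *Sfmbt1*, *Sfmbt2*, *L3mbtl1*, *L3mbtl3*, *L3mbtl4* and *Wdr5b*, 0 of 9 passed from control ESCs to control EBs of the *Pcgf1* line by limma without the block. With the block 3 rose and 1 fell, where 43.9% of all genes were called. *Cbx1* rose by 0.88, *L3mbtl3* by 1.00 and *Mbtd1* by 0.32, and *Sfmbt2* fell by 0.48. In *Pcgf1*-KO ESCs *Mbtd1* (-0.50) and *Sfmbt2* (-1.03) fell with the block (adjusted p = 0.00605 and 0.00384), where 5.31% of all genes were called. Between *Pcgf1*-KO ESCs and EBs *Mbtd1* rose by 0.59 (adjusted p = 0.04), where 18.3% of all genes were called. With the block 4 paralogues rose and 1 fell, where 36.8% of all genes were called. The point mutant line gave 0 of 9 calls in each of its 5 comparisons by limma without the block. *L3mbtl4* was at 0 TPM at the median of the *Pcgf1* line. Reads of *Cbx3* and *Wdr5* can be shared with close copies such as the pseudogene Cbx3-ps3 and *Wdr5b*, and how reads with several matches were counted is not given in the sources used here.

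The MAX network, 10 genes of MAX partners and of MLX, held *Myc*, the oncogenic MAX partner, which rose by 2.97 from control ESCs to control EBs (SE 0.48, adjusted p = 0.000165) and by 2.74 from *Pcgf1*-KO ESCs to *Pcgf1*-KO EBs. *Mxd4*, a repressor partner of MAX, rose by 1.32 (adjusted p = 0.0164) and 1.52 (adjusted p = 0.00566) in these comparisons. With *Mlx* (0.37, adjusted p = 0.034), 3 of 10 rose and 0 fell in control cells, where 24.9% of all genes were called. With the block 5 rose and 2 fell, where 43.9% of all genes were called. Between *Pcgf1*-KO ESCs and EBs 2 rose and 0 fell, where 18.3% of all genes were called. With the block 6 rose and 2 fell, where 36.8% of all genes were called. In *Pcgf1*-KO against control cells 0 of 10 were called by limma at either stage. With the block 1 rose and 1 fell in ESCs, and 0 rose and 1 fell in EBs, where 5.31% and 10.4% of all genes were called. In point mutant libraries *Mxd4* (2.28, adjusted p = 0.00446) and *Mycn* (0.96, adjusted p = 0.0494) rose from control ESCs to control EBs, *Mxd4* rose in mutant ESCs by 1.40 (adjusted p = 0.0358), and *Mycn* fell in mutant EBs by 1.49 (adjusted p = 0.0157). *Max* itself passed in none of the 5 comparisons of either line.

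Among 11 genes of the E2F, DP and pocket proteins, 1 rose and 3 fell from control ESCs to control EBs of the *Pcgf1* line, with a median of -0.30. Of all genes 24.9% were called there. With the block 4 of the 11 rose and 5 fell, where 43.9% of all genes were called. *Rbl2* fell by 1.13 (adjusted p = 0.00779) and *Rbl1* by 1.09 (adjusted p = 0.00075), both pocket proteins, while *Tfdp2*, the DP2 gene, rose by 0.51 (adjusted p = 0.0436). *E2f1*, an activating E2F, also fell, by 0.89 (adjusted p = 0.0374). Without PCGF1, 1 of 11 rose between the stages, *Tfdp2* by 0.65 (adjusted p = 0.0105), where 18.3% of all genes were called. With the block 2 of the 11 rose and 3 fell, where 36.8% of all genes were called. In *Pcgf1*-KO against control cells 0 of 11 were called. With the block 0 rose and 1 fell in ESCs and 1 rose and 2 fell in EBs, where 5.31% and 10.4% of all genes were called. For point mutant libraries *E2f2* fell by 0.96 from control ESCs to control EBs (adjusted p = 0.037), and 0 of 11 passed in mutant against control cells of either stage. Of 10 WDR5 partners 1 was lower in *Pcgf1*-line control EBs, *Rbbp5*, a subunit of the same methyltransferase core, by 0.69 (adjusted p = 0.00609), and with the block 2 rose and 3 fell. Without PCGF1, 0 of 10 were called between the stages, and 3 rose and 1 fell with the block. In *Pcgf1*-KO against control cells 0 of 10 were called, and with the block 1 of 10 rose in EBs. The point mutant line again gave 0 calls, of 10, in each of the 5 comparisons without the block.

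A list of 16 germline genes that PRC1.6 is known to repress was examined in the point mutant line. The list was chosen with earlier results of these data known, so its counts are given as a description. In mutant ESCs 10 of 16 rose and 0 fell, with a median log2 fold change of 1.87 against 0.12 for all genes, of which 2.54% were called. *Tdrd1*, a gene of the piRNA pathway, was at 0.639 and 0.690 TPM in control ESCs and at 7.39 and 10.9 TPM in mutant ESCs (3.57, SE 0.55, adjusted p = 0.0255). *Tex101*, a testis gene, rose by 3.06 (adjusted p = 0.00518), whereas the lowest of those that rose were *Zcwpw1* (1.13, adjusted p = 0.021) and *Stk31* (1.31, adjusted p = 0.0111). *Mael*, whose promoter is printed above, went from between 17 and 27.5 TPM in controls to between 125 and 155 TPM in mutant ESCs (2.68, adjusted p = 0.00714), and was named here for its promoter, after its values were seen. In mutant EBs 9 of 16 rose and 0 fell, with a median of 1.40, where 4.53% of all genes were called. They ran from *Mael* (1.38, adjusted p = 0.0259) and *Stk31* (1.41, adjusted p = 0.0099) to *Stra8*, a meiotic entry gene (3.10, adjusted p = 0.0174), and *Tex101* (3.33, adjusted p = 0.00282). From control ESCs to control EBs of this line 3 of 16 rose and 0 fell, *Meioc* by 1.73, *Mael* by 1.62 and *Smc1b* by 1.47, where 4.73% of all genes were called. From mutant ESCs to mutant EBs 0 of 16 were called, where 0.133% of all genes were called. The shifts of feeder, endoderm and stage markers given above for the mutant cells stand beside these values as well, and their part was not tested.

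In *Pcgf1*-KO against control cells 0 of 16 germline genes were called by limma without the block at either stage, with medians of -0.48 in ESCs and -0.36 in EBs. With the block 0 rose and 2 fell in ESCs, and 1 rose and 2 fell in EBs, where 5.31% and 10.4% of all genes were called. From control ESCs to control EBs 4 of 16 rose and 2 fell, where 24.9% of all genes were called. They were led by *Tdrd1* (2.66, adjusted p = 0.000277) and *Mael* (1.51, adjusted p = 8.12e-05), with *Stag3* lowest (-1.77, adjusted p = 0.00562) and *Stra8* at -1.62 (adjusted p = 0.0486). With the block 5 of 16 rose and 5 fell, where 43.9% of all genes were called. Between *Pcgf1*-KO ESCs and EBs 3 of 16 rose and 0 fell, *Tdrd1* by 2.29, *Zcwpw1* by 1.09 and *Mael* by 1.08, where 18.3% of all genes were called. With the block 3 of 16 rose and 1 fell, where 36.8% of all genes were called.

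The genes whose levels followed a member most closely were sought across the 19 libraries of the *Pcgf1* line, by Pearson's r of log2(TPM + 0.1) over 13400 genes with a mean of at least 1 TPM. The 19 libraries share stage and library series, so that r describes these libraries alone. *Mga* was closest to *Sbf2* (r = 0.98), *Atad5* (0.96) and *Pias1* (0.96), and over the 8 point mutant libraries these were at 0.89, 0.88 and 0.55. *Wdr5* was closest to *Mok* (0.97), *Aes* (0.97) and *Mfge8* (0.97), at 0.72, 0.58 and -0.34 in the point mutant line. For *L3mbtl2* these were *Afg3l1* (0.97), *Tle4* (0.96) and *Pik3cd* (0.96), at -0.41, 0.18 and -0.45 there. *E2f6* was closest to *Ggt7* (0.91), *Suv39h1* (0.90) and *Csnk1g3* (0.90), at 0.28, 0.74 and 0.29 there. *Max* followed *Usp42* (0.95), *Taok2* (0.94) and *Helz* (0.94), *Tfdp1* followed *Slc4a4* (0.94) and *Ptpn9* (0.93), and *Cbx3* followed *Top1* (0.95), *Wdr43* (0.95) and *Gnai3* (0.94). Over the point mutant libraries their r was 0.11, 0.35 and -0.03 for *Max*, -0.04 and 0.26 for *Tfdp1*, and -0.41, 0.05 and -0.44 for *Cbx3*.

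Among the members themselves, the highest r over these 19 libraries was that of *Mga* with *Max* (0.81) and the lowest that of *Wdr5* with *Cbx3* (-0.80). Over the 8 point mutant libraries these were at 0.08 and -0.20.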

How the data were processed

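RNA-seq values were those the authors deposited as TPM, 1 column per library. Per the labels and the authors' methods, libraries were made with a poly(A)-based kit, reads were mapped to mm9 and counted on exons with STAR (version 2.5.2b), and DESeq2 gave their fold changes; the step from counts to TPM is not given in the sources used here. DESeq2 and other count models were not used here, since TPM are not counts. Libraries were grouped by sample labels, with replicates from the titles.

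The limma package (version 3.58.1, under R 4.3.3) was run on log2(TPM + 0.1), 1 fit per line over 4 groups, with a trend of the variance with the mean, over genes not at 0 throughout the line. An adjusted p (Benjamini-Hochberg, all genes tested) under 0.05 was a call. Same-numbered libraries of the *Pcgf1* line deviated together (r 0.317 to 0.653 in all 27 pairs, from the replicate numbers in the titles), so that fits with the replicate block are given beside those without. For 1 *Pcgf1*-KO EB library the title gives replicate 4 and another label 5, and the title was used. No pair of the 1711 pairs of libraries was identical. The fit was tested on simulated data. Tables and plots were made in Python 3.11.15 with pandas 2.3.3, numpy 2.4.6 and matplotlib 3.10.9.

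The members and lists were chosen with earlier results of these data known. Named genes are the members, the other subunits, the paralogues, in other lists the 2 highest and 2 lowest fold changes among called genes, and the 3 genes most like each member, of which 1 for *Tfdp1* is not reported here. Alternatives were a pseudocount of 1, median-of-ratios scaling, a mean TPM of 1 or more, the block, only the groups compared, leaving out each library, and a block by library series, added after the data were seen. Depth is unknown, so no counting interval is given.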

Additional observations from a re-analysis of the deposited data

Results flagged for a closer look

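In groups of 4 or 5 libraries, 4 of the 28 member and group combinations tested had a library whose gap to the nearest other was large for the range of its group by Dixon's test, and chance gives about 1 in 20. Only the *Pcgf1* line has groups of that size. *Mga* in control EB replicate 1 was at 44.6 TPM, below the other 4 at 71.0 to 79.7 TPM. *E2f6* in *Pcgf1*-KO ESC replicate 2 was at 24.5 TPM, above the others at 19.2 to 19.9 TPM. *Tfdp1* in *Pcgf1*-KO ESC replicate 1 was at 148 TPM, below the others at 164 to 169 TPM. *Wdr5* in *Pcgf1*-KO ESC replicate 3 was at 240 TPM, below the others at 254 to 260 TPM.

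For *L3mbtl2* the difference of *Pcgf1*-KO from control was larger in EBs than in ESCs by 0.39 (limma with the replicate block, adjusted p = 0.0403). *Pcgf1*-KO was above control in 5 of 5 EB pairs and 4 of 4 ESC pairs. Without the block the difference was 0.44 (adjusted p = 0.986).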

How the results depend on the processing

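Members called of 7 in the *Pcgf1* line changed with the setting. From control ESCs to control EBs 1 was called, 2 with median-of-ratios scaling and 4 with the replicate block or with the library series as a block (the latter chosen after seeing the data). From *Pcgf1*-KO ESCs to *Pcgf1*-KO EBs 2 were called, 1 with a pseudocount of 1, 1 with median-of-ratios scaling, 0 with only the groups compared and 1 to 2 with 1 library left out. In *Pcgf1*-KO against control ESCs 0 were called, 1 with the replicate block and 2 with the series block, which added *L3mbtl2* (0.22, adjusted p = 0.0472). In EBs 0 were called, 1 with median-of-ratios scaling and 2 with either block, and for the difference between stages 0 and 1 with either block. Median-of-ratios scaling also called *E2f6* from control ESCs to control EBs (0.44, adjusted p = 0.013). Exchanging the numbers 4 and 5 of the *Pcgf1*-KO ESCs in the replicate block (also chosen after seeing the data) gave the same 4, 3, 1, 2 and 1 calls as the block in the 5 comparisons. In the *Pcgf1* line the replicate block changed no call of a member other than those given in the report. For the point mutant line, where same-numbered libraries correlated by 0.106 to 0.381 but share only a number, the block called *Wdr5* from control ESCs to control EBs (1 of 7, adjusted p = 0.0193), where it called 2018 genes (9.95%) against 960 without it, and kept *E2f6* in mutant ESCs (adjusted p = 0.0146). Of the other lists it called in addition *Cbx1* (-0.67, adjusted p = 0.0408) among the paralogues in mutant EBs, and 1 more E2F gene higher from control ESCs to control EBs, and the germline genes higher went from 3, 0, 10 and 9 to 5, 1, 11 and 11 (EB against ESC in control and mutant, mutant against control in ESCs and EBs). In these 4 comparisons the block called 9.95%, 0.503%, 6.54% and 10.1% of all genes. A mean TPM of at least 1 also gave 1 call from control ESCs to control EBs. In mutant ESCs 1 was called, 0 with only the groups compared (*E2f6*, adjusted p = 0.0912) and 0 to 0 with 1 library left out. In the *Pcgf3/5* line 0 were called. With only the groups compared, 4 of 7 were called between the groups labelled control ESC and control EB. The cause was not tested.

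Directions that turned were all of uncalled values. With the replicate, exchanged and series blocks *Cbx3* turned in the *Pcgf1* difference between stages (-0.0681, -0.0692 and -0.0595), and with median-of-ratios scaling *Wdr5* in point mutant EBs (-0.13). With 1 library left out in the *Pcgf1* line, log2 fold changes ran for *Max* from -0.0214 to 0.16 (control EB against ESC), -0.15 to 0.0502 (KO against control EB) and -0.0164 to 0.18 (difference), and for *E2f6* from -0.0924 to 0.10 (KO EB against ESC) and -0.20 to 0.0118 (KO against control ESC). They ran for *Mga* from -0.23 to 0.18 and for *Tfdp1* from -0.0839 to 0.11 (both KO against control EB), and for *Cbx3* from -0.0884 to 0.11 (difference). Among point mutant libraries they ran from control ESCs to EBs for *L3mbtl2* from -0.64 to 0.11, *Mga* -0.16 to 0.35 and *Cbx3* -0.0548 to 0.13, and from mutant ESCs to EBs for *Mga* from -0.76 to 0.37 and *Tfdp1* -0.38 to 0.0297. In mutant ESCs they ran for *L3mbtl2* from -0.30 to 0.21 and *Max* -0.13 to 0.0141, and in mutant EBs for *L3mbtl2* from -0.40 to 0.35, *Mga* -1.12 to 0.00458, *Tfdp1* -0.0400 to 0.37 and *Wdr5* -0.0281 to 0.0326. For the difference they ran for *L3mbtl2* from -0.35 to 0.39, *Mga* -0.85 to 0.28 and *Cbx3* -0.0524 to 0.13. Of the member values with 1 library left out, 628 of 665 in the *Pcgf1* line and 250 of 280 in the point mutant line kept direction and call. Depth is unknown, and with 2 libraries per group the precision of the point mutant line is limited.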
